A study of Mus musculus with 16 samples.

Results

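The 9 genes described here encode proteins of the junctions that hold neighbouring cells together, and they were chosen by name. *Cldn11*, *Ocln* and *F11r* encode membrane proteins of tight junctions, and *Tjp1* a scaffold under them. *Gja1* encodes a gap junction channel, *Cdh1* and *Cdh2* encode cadherins of adherens junctions, and *Ctnnb1* encodes the β-catenin that binds their tails. *Dsp* encodes the plaque protein of desmosomes. They are 9 of the 30451 genes in a table of unique molecular identifiers (UMIs, 1 for each captured mRNA molecule) per cell, made from dissociated whole testes of mice at postnatal day 2 with the 10x Genomics 3′ v3 kit.

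Tight junctions seal the space between cells, gap junctions let small molecules pass from cell to cell, and adherens junctions and desmosomes anchor the actin and keratin or vimentin filaments of one cell to those of the next. In the testis, Sertoli cells, which line the seminiferous tubule and nurse the germ cells, later build the blood-testis barrier from tight junctions that contain claudin-11, with connexin 43, N-cadherin and desmosomal proteins at the same contacts. In the newborn testis this barrier has not yet closed, and germ cells still lie among the Sertoli cells in the middle of the cord.

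Of the 16 labelled samples, 8 were wild type and 8 *Ddx5* conditional knockout, but the barcodes carry no number of the sample, so each genotype counted as 1 library and no difference between genotypes could be set against replicate error. In the knockout, Cre driven by the *Mvh* promoter removes the floxed *Ddx5* alleles in germ cells, so that Sertoli, Leydig, myoid and stromal cells keep the gene. *Oct4*-GFP, a green reporter of germ cells, and Cre were counted in the same table, and the number of mice is not given in the sources used here. A barcode was kept where 2000 or more genes were detected and mitochondrial genes gave no more than 10% of its UMIs. That left 6329 of 6763 barcodes in wild type and 4950 of 5423 in the other library, with medians of 11170 and 11668 UMIs per cell. The libraries had 12 barcode sequences in common.

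The targeted gene was not lower in germ cells under the knockout label. Levels are given as CPM, the UMIs of a gene per 1000000 UMIs of the same cells. In germ cells *Ddx5* stood at 1152 CPM in wild type and at 1736 CPM in the library carrying the knockout label, a ratio of 1.51 (95% interval 1.40 to 1.62). Of all genes with at least 100 UMIs in germ cells, 70.2% were past 1.5-fold either way between these libraries, with a median ratio of 0.55. In the paper, *Ddx5* mRNA was lower in knockout germ cells of the same age by single-cell qRT-PCR. Cre was found as 20 UMIs in those germ cells and as 0 UMIs in wild-type germ cells. Germ-gated cells were 125 of 6329 in wild type and 12 of 4950 in the other library. Because no file pairs the suffix of a barcode with a genotype, "the library labelled knockout" is used throughout.

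Cells were assigned to types by UMI gates that used none of the 9 genes. Sertoli cells were those with at least 3 *Amh* UMIs (2256 and 1635 cells, wild type first). Leydig cells (177 and 143), myoid cells (764 and 524), stroma (3590 and 3005) and germ cells (125 and 12) were gated on their enzyme, contractile, *Pdgfra* and germline genes. The Pax8-type gate, at least 3 UMIs of *Pax8*, *Ecrg4* and *Cnmd* together, held 47 and 9 cells. The 8 Sertoli markers other than *Amh*, which the gates did not use, were all detected in the Sertoli gate, with summed levels of 10032 and 9231 CPM against 476 and 485 CPM in stroma. Macrophages (54 and 57 cells) served as a class that should lack most of the 9 genes.

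Gates overlapped, and this bears on several values below. Of the 47 Pax8-type cells of wild type 29 also met the Sertoli gate, and 8 of 9 did so in the library labelled knockout. A *Pax8* UMI was found in 19 of the 47 and 1 of the 9, and a *Cnmd* UMI in 44 and 9. Of the 125 wild-type germ cells 39 also met the Sertoli gate, against none of 12. Most myoid cells also met the stroma gate (674 of 764 and 478 of 524). Levels are therefore also given for cells that met a single gate.

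The bases before the start of 5 members are shown because these 5 stood far higher in Sertoli cells than in stroma and have an entry in the RefSeq promoter table (GRCm38.p6), in which 7 of the 9 genes were found. Each line gives up to 250 bases before the annotated start, on the gene's own strand. They come from chr3:31149670-31149919 (plus strand) for *Cldn11*, chr13:100552719-100552968 (minus) for *Ocln*, chr1:171437311-171437534 (plus) for *F11r*, chr10:56377050-56377299 (plus) for *Gja1* and chr13:38151044-38151293 (plus) for *Dsp*. For *F11r* the last 26 bases were left out because they lie within the gene as GENCODE vM21 draws it. For *Gja1* the bases end at the RefSeq start, which lies before the GENCODE vM21 start at chr10:56377330. Capitals mark matches on either strand to the letters of 5 motifs, which were those of SOX factors (AACAAT), of NR5A1 (AAGGTCA), of GATA factors (AGATAA), of the GC box (GGGCGG) and of the TATA box (TATAAA).
Cldn11: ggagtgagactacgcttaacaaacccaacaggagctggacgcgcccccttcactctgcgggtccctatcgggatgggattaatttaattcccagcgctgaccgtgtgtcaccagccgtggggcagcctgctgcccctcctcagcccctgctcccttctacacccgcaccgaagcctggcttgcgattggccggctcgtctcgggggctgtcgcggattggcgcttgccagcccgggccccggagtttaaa
Ocln: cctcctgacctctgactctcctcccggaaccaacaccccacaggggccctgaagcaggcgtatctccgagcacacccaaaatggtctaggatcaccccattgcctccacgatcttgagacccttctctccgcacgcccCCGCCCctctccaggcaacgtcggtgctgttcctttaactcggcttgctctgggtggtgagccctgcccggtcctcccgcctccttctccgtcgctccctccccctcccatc
F11r: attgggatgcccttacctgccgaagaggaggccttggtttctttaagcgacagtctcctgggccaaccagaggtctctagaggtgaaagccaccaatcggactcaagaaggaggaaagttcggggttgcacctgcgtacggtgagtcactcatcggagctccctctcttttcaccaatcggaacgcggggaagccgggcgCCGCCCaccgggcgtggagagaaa
Gja1: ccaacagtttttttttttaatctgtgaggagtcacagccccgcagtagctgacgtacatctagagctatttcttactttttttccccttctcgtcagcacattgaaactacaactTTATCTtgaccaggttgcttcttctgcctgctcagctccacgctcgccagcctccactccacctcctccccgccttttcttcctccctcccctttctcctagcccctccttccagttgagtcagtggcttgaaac
Dsp: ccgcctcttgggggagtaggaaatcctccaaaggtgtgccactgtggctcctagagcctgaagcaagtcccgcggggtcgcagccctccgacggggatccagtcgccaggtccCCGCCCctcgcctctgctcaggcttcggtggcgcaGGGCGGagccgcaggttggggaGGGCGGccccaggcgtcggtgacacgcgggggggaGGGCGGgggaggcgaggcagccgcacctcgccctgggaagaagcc

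The GC box letters were found in 3 of these 5 sequences, 4 times in that of *Dsp* and once each in those of *Ocln* and *F11r*, and 32.7% of all 32851 windows of 250 bases in the table held them. The GATA letters were found once, 135 bases before the RefSeq start of *Gja1*, and 9.99% of all windows held them. The SOX, NR5A1 and TATA letters, held by 9.42%, 4.08% and 12.4% of all windows, were not in these stretches. The sequences differed in base composition, from 50% G and C before *Gja1* to 72.4% before *Dsp*. 

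Against stroma the tight junction genes were Sertoli-high, with 1 exception. *Cldn11*, which encodes the claudin of the Sertoli barrier, stood at 34.02 CPM (95% Poisson interval 32.2 to 35.95) in Sertoli cells of wild type and at 23.4 CPM (21.7 to 25.2) in the library labelled knockout. In stroma its levels were 1.26 and 0.93 CPM, and the Sertoli level was 27.1-fold (20.3 to 36.8) and 25.02-fold (17.5 to 37.1) higher. *Ocln*, for occludin, a tetraspan protein of the seal, stood at 53.2 CPM (50.8 to 55.6) and 47.9 CPM (45.4 to 50.5) in Sertoli cells, and at 0.82 and 0.27 CPM in stroma. *F11r*, for junctional adhesion molecule A, stood at 153 CPM (149 to 157) and 134 CPM (130 to 138) in Sertoli cells, against 7.29 and 7.45 CPM in stroma, 21.0-fold and 18.0-fold. Each of these 3 genes was thus more than 15-fold higher in Sertoli cells than in stroma in both libraries. With 10 CPM added to both levels the *Cldn11* ratios were 1.97 and 1.61 on the log2 scale, those of *Ocln* 2.55 and 2.50 and those of *F11r* 3.24 and 3.05, since the stroma levels are below or near the added value. Other types were nearer to the Sertoli level. In wild type *Cldn11* and *F11r* stood at 47.4 and 178 CPM in Pax8-type cells, and *Ocln* at 37.25 CPM in germ cells. All intervals cover counting error only.

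*Tjp1*, which encodes ZO-1 (GRCm38 chr7:65296165-65527781, minus strand), was spread over all types and highest in germ cells. It stood at 187 CPM (174 to 200) in wild-type germ cells and at 64.1 CPM (61.5 to 66.7) in Sertoli cells, a ratio of 2.92 (2.69 to 3.16). In the library labelled knockout the 12 germ cells gave 71.2 CPM from 33 UMIs and Sertoli cells 61.9 CPM (59.1 to 64.9), and the interval of their ratio, 0.79 to 1.62, includes 1. Sertoli cells were 1.63-fold (1.52 to 1.74) and 1.69-fold (1.57 to 1.82) above stroma. Leydig cells were the lowest of the 6 types, at 28.9 CPM in each library.

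*Gja1*, for connexin 43, was high in Sertoli and Leydig cells. It stood at 377 CPM (371 to 383) and 365 CPM (358 to 372) in Sertoli cells and at 381 CPM (359 to 404) and 295 CPM (276 to 316) in Leydig cells, which make testosterone in the space between the cords. In wild type these neighbours did not differ beyond counting error (ratio of Leydig to Sertoli 1.01, 0.95 to 1.07), and in the library labelled knockout Leydig cells were lower (0.81, 0.75 to 0.87). The Pax8-type gate, most of whose cells also met the Sertoli gate, had 304 and 455 CPM, the latter from 9 cells. Stroma had 13.1 and 11.01 CPM and myoid cells 39.0 and 22.8 CPM. In cells that met the Leydig gate alone *Gja1* stood at 433 and 291 CPM, and in wild type this was 1.11-fold (1.03 to 1.19) the level of single-gate Sertoli cells, an interval above 1, while *Ocln* was at 1.61 and 1.13 CPM and *Cldn11* was found as 1 UMI in each library.

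The cadherins differed in level but shared cell types. *Cdh2*, for N-cadherin, stood at 53.3 CPM (51.0 to 55.7) and 57.9 CPM (55.2 to 60.8) in Sertoli cells and at 5.18 and 5.34 CPM in stroma, 10.3-fold (8.90 to 11.95) and 10.9-fold (9.29 to 12.7) lower. *Cdh1*, for E-cadherin (chr8:106603351-106670246, plus strand), was rare, with 87 UMIs in 60 wild-type cells and 6 UMIs in 5 cells under the knockout label. Of the 87 UMIs, 63 were in germ cells and 18 in 7 Pax8-type cells, all 7 of which also had a *Pax8* UMI. Cells outside both of these gates held 6 UMIs. Of the 6 UMIs under the knockout label 2 were in germ cells, 0 in Pax8-type cells and 4 in 3 cells outside both gates. Sertoli-gated cells of wild type held 25 *Cdh1* UMIs, of which 2 remained once cells that also met the germ or Pax8-type gate were set aside. In the library labelled knockout, Sertoli cells had 0 UMIs, and the floor of 3 UMIs there is 0.10 CPM. In wild-type germ cells of a single gate *Cdh2* stood at 32.3 CPM and *Cdh1* at 17.3 CPM. In Pax8-type cells of a single gate they stood at 59.7 and 106 CPM.

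*Ctnnb1*, which encodes β-catenin, a partner of every classical cadherin and a transducer of Wnt signals, was broadly expressed (chr9:120929216-120960507, plus strand), with levels of 251 to 360 CPM over the 6 types of wild type. It was highest in myoid cells, the contractile cells around the cords, at 360 CPM (348 to 372) and 360 CPM (346 to 374), and stood at 317 and 295 CPM in Sertoli cells and 286 and 275 CPM in stroma. Sertoli cells exceeded stroma by 1.11-fold and 1.07-fold. *Dsp*, for desmoplakin, which ties desmosomes to intermediate filaments, followed the tight junction genes. It stood at 54.7 CPM (52.3 to 57.1) and 81.7 CPM (78.4 to 85.1) in Sertoli cells, at 7.30 and 11.1 CPM in Leydig cells and at 0.85 and 0.57 CPM in stroma.

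In counts, 8 of the 9 genes had enough UMIs to be compared, which excludes *Cdh1*, and 6 of these 8 were at least 2-fold higher in Sertoli cells than in stroma in both libraries. Over all genes 13.1% were. *Ocln* and *Dsp* were highest in Sertoli cells in both libraries, as were 7.31% of all genes with at least 100 UMIs in each. *Tjp1* was highest in germ cells in both (14.3% of all genes) and *Ctnnb1* in myoid cells (7.37%). *Cldn11*, *F11r*, *Gja1* and *Cdh2* had their highest level in different types in the 2 libraries, in each case with an interval between the first and second type that includes 1. In wild type that interval also includes 1 for *Dsp* (Sertoli over Pax8-type 1.03, 0.77 to 1.41) and for *Ctnnb1* (myoid over Pax8-type 1.02, 0.91 to 1.15).

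**Figure D1:**
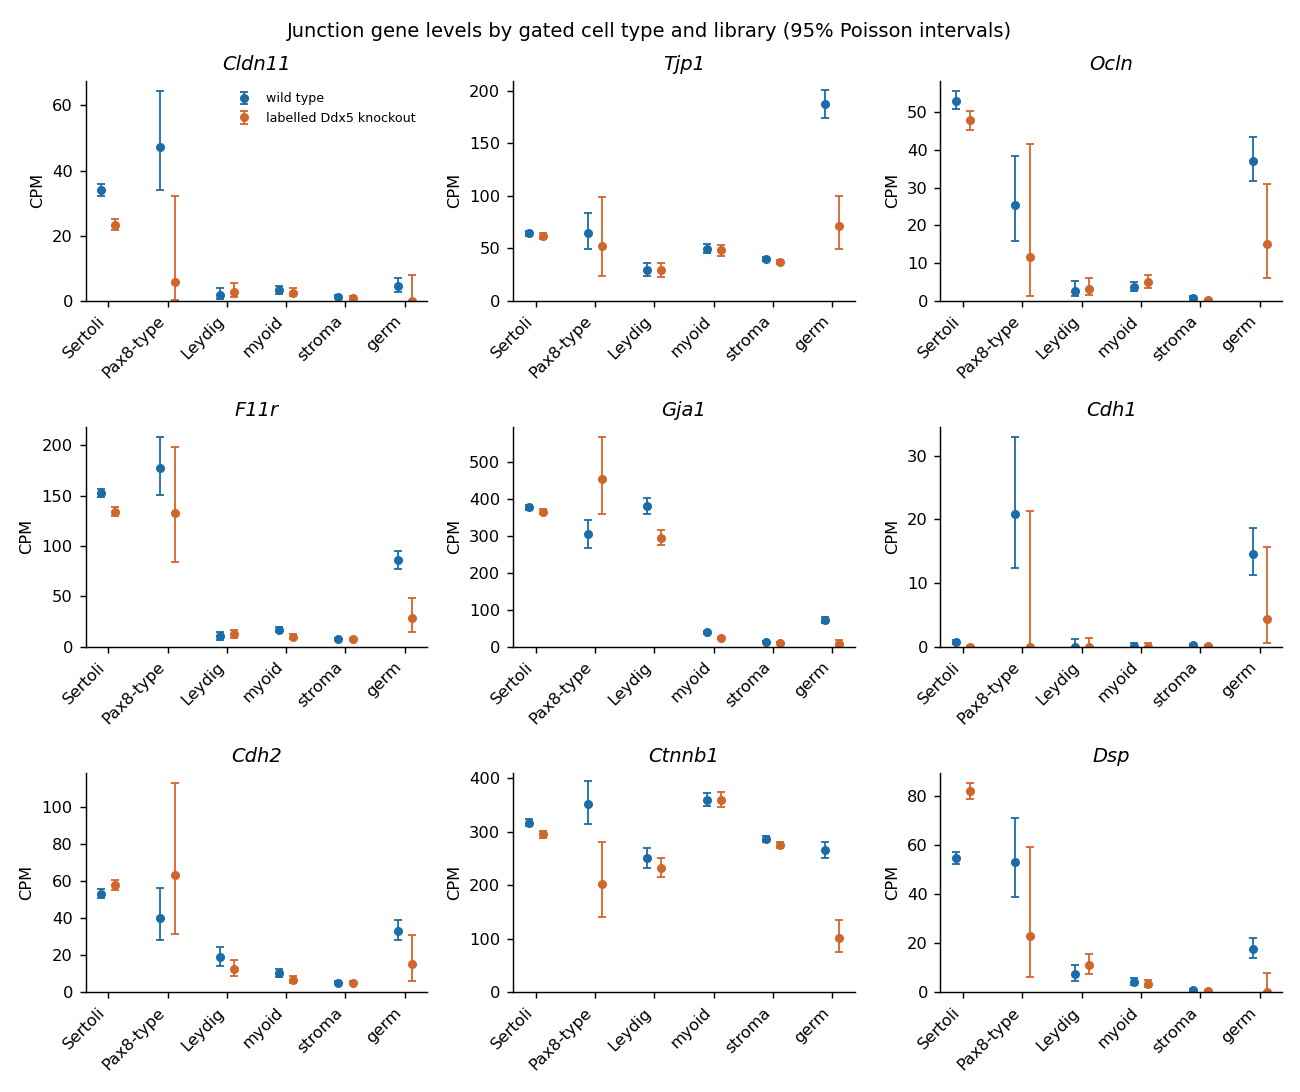
Level of each of the 9 genes in CPM (linear axes from 0, own scale per panel) in the 6 gated cell types, with a point per library and bars for the 95% Poisson interval. Most genes are high in Sertoli and Pax8-type cells and near 0 in stroma, *Tjp1* peaks in wild-type germ cells at 187 CPM, *Gja1* is also high in Leydig cells, and *Ctnnb1* is above 100 CPM in every type.

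Shares of cells showed the same pattern once depth was equalised. Each cell was thinned to 5000 UMIs, which left out 19 Sertoli cells of wild type. Of 2237 wild-type Sertoli cells, 80.0% had a *Gja1* UMI (95% Clopper-Pearson interval 78.3 to 81.7), 78.7% a *Ctnnb1* UMI and 56.3% an *F11r* UMI (54.2 to 58.4), which was 35.8% at 3000 UMIs per cell. *Tjp1* (23.3%), *Ocln* (23.2%), *Dsp* (22.5%), *Cdh2* (21.8%) and *Cldn11* (14.1%) were found in fewer cells, and *Cdh1* in 0.13%. Without thinning, at a median of 13711 UMIs, *Cdh1* was found in 0.89%, and the other 8 shares ran from 35.2% for *Cldn11* to 97.2% for *Ctnnb1*. A median Sertoli cell had 3 of the 9 genes, and 13.7% had 5 or more, against 0.03% of stromal cells.

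Macrophages were used as a background for free RNA, but some of them also met other gates. Of the 54 and 57 macrophages, wild type first, 4 and 5 met the Sertoli gate and 9 and 13 the stroma gate. Free RNA and mixed barcodes were not told apart. In 53 wild-type macrophages *Cldn11*, *Cdh1* and *Dsp* were found in 0 thinned cells, below the floor of 5.66% (3 of 53 cells). The Clopper-Pearson upper limit on the share of cells with a UMI was 6.72%. *Gja1* was found in 9.43%, *Tjp1* in 5.66% and *Ocln* in 3.77%. *Ctnnb1* was found in 49.1% (35.1 to 63.2) and stood at 56.2% of its Sertoli level. *F11r* was found in 39.6% (26.5 to 54.0), and its summed level in macrophages, 79.3 CPM, was 51.8% of that in Sertoli cells. The Sertoli markers *Sox9*, *Rhox8*, *Aard*, *Cst9*, *Cst12* and *Dhh*, which the gate did not use, stood at 5.28% to 9.54% of their Sertoli levels there, and *Tjp1* at 26.6%. In macrophages of the library labelled knockout these markers stood at 8.04% to 23.65%, and *Tjp1* at 46.8%. Junctional adhesion molecule A is known from leukocytes as well as from epithelia.

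**Figure D2:**
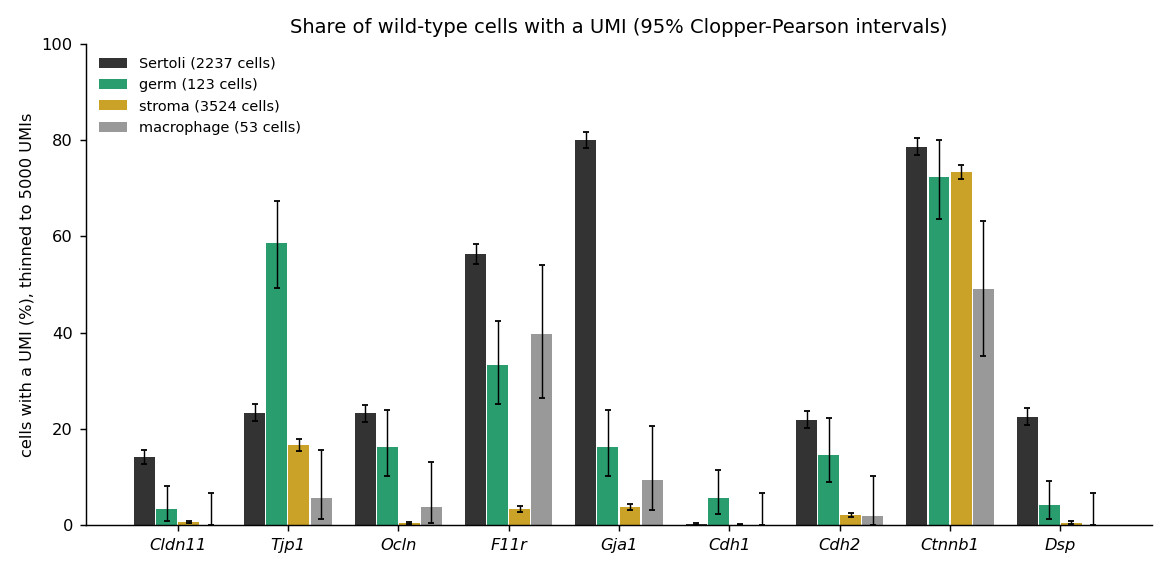
Share of wild-type cells with at least 1 UMI of each gene after thinning to 5000 UMIs (axis 0 to 100%), in Sertoli cells, germ cells, stroma and macrophages, with 95% Clopper-Pearson bars. *Gja1* reaches 80.0% in Sertoli cells and 3.69% in stroma, *Tjp1* is highest in germ cells at 58.5%, and *F11r* is the gene besides *Ctnnb1* with a large share in macrophages.

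Sertoli markers were detected in the germ cells of wild type, so levels there were read beside theirs. The 6 markers named above stood in germ-gated cells at 16.2% to 19.0% of their Sertoli levels. *Cldn11* (12.9%) and *Gja1* (18.8%) were below or within that range. *Dsp* (32.6%), *F11r* (56.2%), *Cdh2* (62.5%), *Ocln* (70.1%), *Ctnnb1* (83.8%) and *Tjp1* (292%) were above it. In the 63 germ cells that met no other gate, *Cldn11* was at 0.94 CPM (2 UMIs) and *Gja1* at 4.68 CPM, 0.026-fold (0.0032 to 0.095) and 0.012-fold (0.0058 to 0.022) the level of single-gate Sertoli cells. *Tjp1* remained at 205 CPM (186 to 225), *F11r* at 69.8 CPM, *Cdh2* at 32.3 CPM, *Ocln* at 29.1 CPM, *Cdh1* at 17.3 CPM (12.2 to 23.9) and *Dsp* at 14.1 CPM. These germ cells, the prospermatogonia of the newborn, thus had *Tjp1* and *Cdh1* above the Sertoli level and *Cldn11* and *Gja1* far below it.

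The Pax8-type cells changed when cells of other gates were set aside. With all 47 cells of wild type, *Gja1* stood at 304 CPM, 0.81-fold the Sertoli level, and *Cldn11* at 47.4 CPM, 1.39-fold (0.99 to 1.90). In the 12 cells that met this gate alone, *Gja1* was found as 1 UMI (6.63 CPM, up to 37.0), 0.017-fold (0.00043 to 0.095) the single-gate Sertoli level. *Cldn11* was at 146 CPM (91.4 to 221), 4.09-fold (2.55 to 6.22) the Sertoli level, and *F11r* at 252 CPM (178 to 346), 1.62-fold (1.14 to 2.22). *Tjp1* was at 0.34-fold (0.069 to 0.98) and *Ocln* at 0.36-fold (0.075 to 1.07, which includes 1), from 3 UMIs each. *Cdh1* was at 106 CPM (60.6 to 172) from 16 UMIs in 6 cells. *Cdh2*, *Dsp* and *Ctnnb1* had ratios of 1.09, 1.05 and 1.28 with intervals that include 1. Of these 12 cells 9 had a *Cldn11* UMI, 6 a *Cdh1* UMI and 1 a *Gja1* UMI, and the library labelled knockout had no cell of this gate alone.

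**Figure D3:**
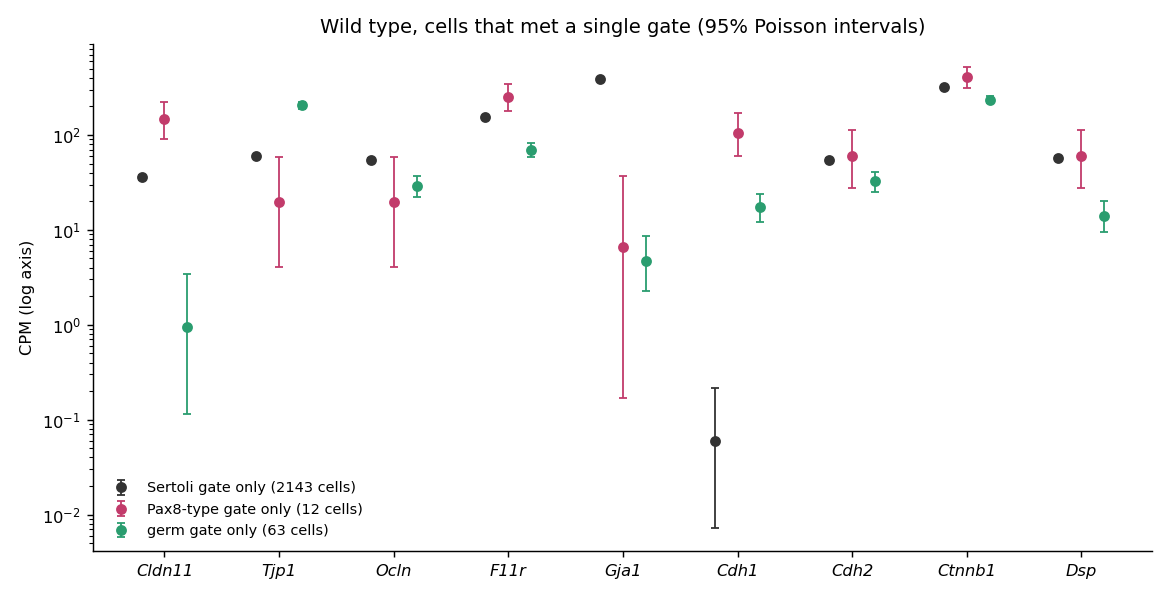
Level in CPM (log axis) of the 9 genes in wild-type cells that met a single gate, with 95% Poisson bars: 2143 Sertoli, 12 Pax8-type and 63 germ cells. *Gja1* is at 389 CPM in Sertoli cells and below 10 CPM in both other types, and *Cdh1* is at 0.060 CPM in Sertoli cells and above 10 CPM in both others.

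Between the libraries, 6 of the 8 genes compared in Sertoli cells had ratios near 1, and *Cldn11* and *Dsp* lay farthest from it. *Cldn11* went from 34.02 CPM in wild type to 23.4 CPM in the library labelled knockout, a ratio of 0.69 (0.63 to 0.76). *Dsp* went from 54.7 to 81.7 CPM, a ratio of 1.495 (1.41 to 1.59), just inside the 1.5-fold used to call a difference of size. The other 6 lay between 0.88 for *F11r* (0.84 to 0.91) and 1.09 for *Cdh2* (1.02 to 1.16), with *Tjp1* at 0.97, *Gja1* at 0.97, *Ctnnb1* at 0.93 and *Ocln* at 0.90. None of the 8 was past 1.5-fold in either direction, where 4.62% of all 12845 genes were. *Cldn11* and *Dsp* were the 2 of 8 whose levels stood at 5 to 4 or more in either direction, against 13.7% of all genes. The median ratio was 0.95 for the 8 and 0.99 for all genes. Both genes lie so near the limit that *Dsp* passed it without called doublets or with CPM outside mitochondrial and ribosomal protein genes, and *Cldn11* passed it (35.7 and 23.7 CPM) without cells of more than 1 gate.

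**Figure D4:**
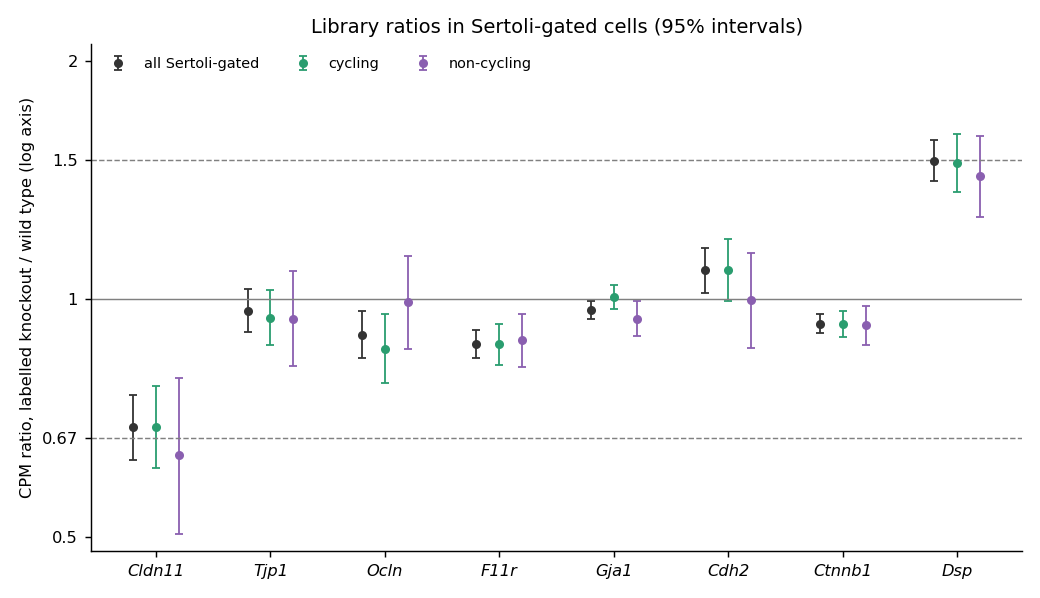
Ratio of CPM in the library labelled knockout to wild type (log axis) for 8 genes, in all, cycling and non-cycling Sertoli cells, with 95% intervals; dashed lines mark 1.5-fold in each direction. *Cldn11* lies at 0.69, 0.69 and 0.63 and *Dsp* at 1.495, 1.49 and 1.43, and the other genes lie near 1.

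Between libraries, in stroma none of 5 genes was past 1.5-fold (3% of all genes), and in Leydig cells none of 3 (2.98%), where *Gja1* had a ratio of 0.78 (0.71 to 0.85). In myoid cells 3 of 5 were, all lower in the library labelled knockout, against 2.19% of all genes. They were *F11r* (16.4 to 9.83 CPM, ratio 0.60), *Gja1* (39.0 to 22.8 CPM, 0.58) and *Cdh2* (10.4 to 6.88 CPM, 0.66). Few cells met the myoid gate alone, 54 of 764 in wild type and 25 of 524 under the knockout label. In them *Gja1* stood at 3.55 CPM (2 UMIs) and 3.99 CPM (1 UMI), *F11r* had 2 and 0 UMIs and *Cdh2* had 0 in both, and no difference was detectable at this depth. Sertoli markers in myoid cells stood at medians of 7.43% and 6.33% of their Sertoli levels, wild type first, and their part in the result was not tested.

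In germ cells all 6 genes with enough UMIs were past 1.5-fold and lower in the library labelled knockout, where 70.2% of all genes were past 1.5-fold, with a median ratio of 0.55 over all genes and 0.38 over the 6. *Gja1* had the lowest ratio, 0.091 (0.019 to 0.27), and *Cdh2* the highest, 0.45 (0.18 to 0.96). The *Gja1* levels were 71.0 and 6.48 CPM in all germ-gated cells, but 4.68 CPM (2.25 to 8.62) and 3.38 CPM (0.086 to 18.8, from 1 UMI) in the 63 and 8 cells that met the germ gate alone, where no difference was detectable at this depth. In the same cells *Tjp1* stood at 205 CPM (186 to 225) and 77.7 CPM (49.3 to 117). The 12 cells of that library had Sertoli markers at a median of 0.69% of the Sertoli level against 17.2% in the 125 wild-type cells. The part of these shares in the ratios was not tested. In Pax8-type cells 1 of 3 was past the fold, *Ctnnb1* with 352 and 202 CPM (ratio 0.57), against 25.8% of all genes.

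Within Sertoli cells the members were compared between cycling and non-cycling cells, defined by at least 5 UMIs and by 0 UMIs of *Mki67*, *Top2a* and *Ube2c* together. Cycling cells made up 39.5% of the Sertoli gate in wild type (890 cells) and 44.0% in the library labelled knockout (720 cells), and they held more UMIs, with medians of 18506 and 20372 against 11821 and 13532. *Cldn11* was higher in cycling cells, at 40.8 against 26.0 CPM in wild type (1.57-fold, 1.36 to 1.81) and 28.1 against 16.5 CPM in the library labelled knockout (1.70-fold, 1.38 to 2.11). It was the 1 member of 8 past 1.5-fold in both libraries, as were 7.71% of all genes. With cycling cells set at 2 or more UMIs its ratios were 0.57 and 0.72 on the log2 scale, against 0.65 and 0.77, and the first was then under 1.5-fold. *Tjp1* was 1.38-fold and 1.39-fold higher in cycling cells, with intervals above 1. *F11r* was lower in cycling cells, 0.78-fold (0.74 to 0.83) and 0.77-fold (0.72 to 0.83), and *Ocln* was at 0.91 and 0.80. *Cldn11* and *F11r*, both of tight junctions, thus lay on opposite sides of 1. *Gja1*, *Ctnnb1*, *Cdh2* and *Dsp* had ratios between 0.90 and 1.18 in both.

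**Figure D5:**
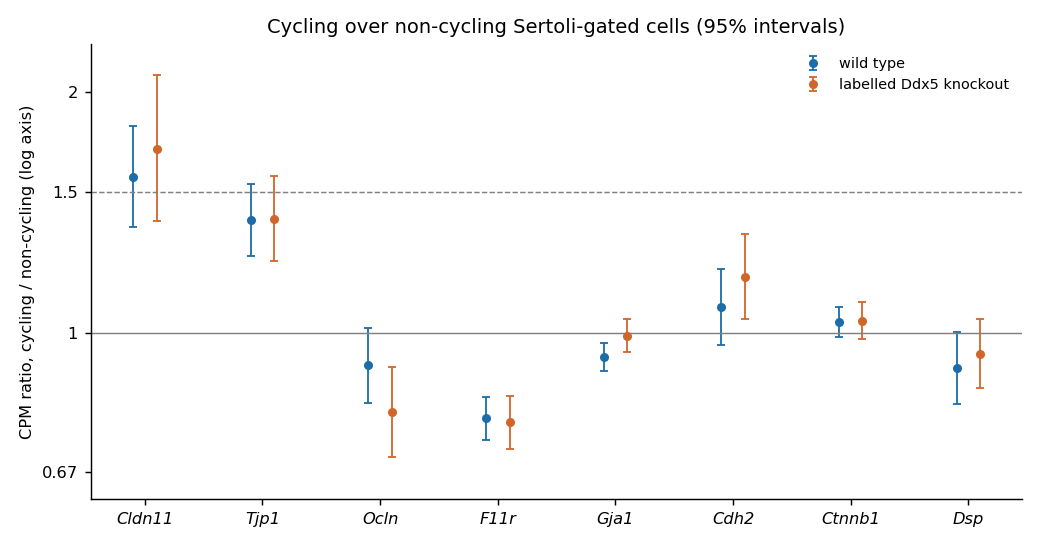
Ratio of CPM in cycling to non-cycling Sertoli cells (log axis) for 8 genes in each library, with 95% intervals. *Cldn11* and *Tjp1* lie above 1 and *F11r* below 1 in both libraries.

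Across the 12 profiles of 6 types and 2 libraries, the profile of *Gja1* in log2(CPM + 10) was most like those of *Clu* (Pearson r = 0.99), *Inha* and *Pak3* among 3530 genes with a mean of at least 50 CPM. That of *Cldn11* was most like *Fabp5* (r = 0.95), *Trim33* and *Gm14226*, and that of *F11r* most like *Tpd52* (r = 0.98), *Psma1* and *Isyna1*. *Tjp1*, whose profile peaks in germ cells, was nearest to *Gm45716* (r = 0.99), *Wdr12* and *Cacybp*. *Ocln* was nearest to *Usp37*, *Rnf126* and *Nrd1*, *Cdh2* to *Zfp787*, *Cited1* and *Prrg2*, *Ctnnb1* to *Yaf2*, *Sox4* and *Smad4*, and *Dsp* to *Rnf34*, *Unc13b* and *Nedd9*. Among the members, *F11r* and *Cdh2* were most alike (r = 0.94), followed by *Cldn11* and *Dsp* (r = 0.90). *Ctnnb1* was like none of them, with r between -0.07 and 0.42. The profiles share libraries, and cells of overlapping gates, so these values are descriptions.

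The wider set of junction genes was read in the same way, from a list of 76 of which 70 were in the table. Of the 33 with enough UMIs, 12 were at least 2-fold higher in Sertoli cells than in stroma in both libraries (13.1% of all genes), and of 34 that could be ranked 6 were highest in Sertoli cells in both (7.31%). Among tight junction genes, *Jam2*, an adhesion molecule related to *F11r*, stood at 126 and 111 CPM in Sertoli cells against 4.64 and 4.58 CPM in stroma. *Cgn*, for the plaque protein cingulin, stood at 74.9 and 72.4 CPM against 1.10 and 0.93 CPM, and its relative *Cgnl1* at 70.7 and 58.8 CPM against 48.2 and 47.3 CPM.

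Of the adherens group, *Nectin2*, which encodes a nectin of Sertoli contacts with germ cells, was highest in Sertoli cells, at 172 and 170 CPM, as was *Espn*, for the actin bundler espin, at 115 and 108 CPM. *Ctnna1*, for the α-catenin that joins β-catenin to actin, stood at 116 and 124 CPM in Sertoli cells and 127 and 129 CPM in stroma. Of the desmosome group, *Jup*, for plakoglobin, stood at 30.6 and 34.9 CPM in Sertoli cells against 1.13 and 1.69 CPM in stroma, and the plakophilin gene *Pkp2* at 14.4 and 13.8 CPM against 0.64 and 0.27 CPM. *Pkp2* was highest in germ cells, at 33.1 and 25.9 CPM. *Pkp4* was highest in stroma, at 53.1 and 47.6 CPM. Other gap junction genes were low in Sertoli cells, with *Panx1* at 19.1 and 19.4 CPM, *Gjc1* at 11.8 and 11.99 CPM and *Gjb2* at 2.17 and 2.56 CPM. *Gjc1*, for connexin 45, was at 101 and 99.2 CPM in stroma and 107 and 111 CPM in myoid cells, types in which *Gja1* was low, and at 102 and 179 CPM in germ cells.

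Between libraries, 33 listed genes had enough UMIs in Sertoli cells, not all of them among the 33 compared with stroma. Of these, 1 was past 1.5-fold, where 4.62% of all genes were. It was *Marveld2*, for tricellulin, which seals corners where 3 cells meet, at 5.01 CPM in wild type and 2.25 CPM in the library labelled knockout (ratio 0.45, 0.33 to 0.60). Its level in wild-type germ cells was 85.4 CPM, and germ transcripts in the Sertoli gate (10 germ markers summing to 100.5 CPM in wild type and 9.40 CPM under the knockout label) moved with it. Their part in the result was not tested. The median ratio of the 33 was 0.99.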

How the data were processed

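Dissociated cells of whole testes were profiled by single-cell RNA sequencing. The authors counted UMIs with Cell Ranger 3.1.0 against GRCm38 with GFP and CRE added, and the deposited table holds raw counts of UMIs per gene and barcode, with at least 612 and 687 UMIs in every barcode of the 2 libraries; the submitters' notes also name Seurat 3.1.5. No file pairs the 2 barcode suffixes with a genotype. Suffix 3 was taken as wild type because suffix 4 held fewer barcodes than the wild-type cells that passed the study's filter.

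UMIs were summed per gate and library and scaled to CPM over all UMIs. Sums were given exact Poisson intervals, ratios exact conditional binomial intervals and shares Clopper-Pearson intervals, at 95% and for counting error only, since UMIs count captured molecules. With 1 library a group no test was run, and a difference was called by size (1.5-fold, at least 100 UMIs over both libraries). Totals after the filter were 82916872 and 66208479 UMIs. Scrublet, as run from scanpy 1.11.5 on each library alone, marked 294 and 300 cells as doublets, which stayed in. Ratios and calls were tested on simulated Poisson counts with known folds. These held no variation between cells or libraries, so the test cannot show how such variation affects the calls. Python 3.11.15, NumPy 2.4.6 and SciPy 1.17.1 were used. Antisense genes overlap *Cdh2* and *Ctnnb1* in GENCODE vM21.

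All 9 members were named. Of the wider list, the 3 genes of each group with the highest CPM in wild-type Sertoli cells, and any past 1.5-fold between libraries there, were named, and for likeness the 3 genes with the highest r. The members and lists were chosen with earlier results of these data known. Alternatives concerned the cell filter, gates, cells of more than 1 gate, doublets, scaling, 10 CPM added to both levels, fold, minimum UMIs, thinning and the definition of cycling.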

Additional observations from a re-analysis of the deposited data

Results flagged for a closer look

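*Gja1* differed in direction between cell types. Its ratio of the library labelled knockout to wild type was 1.497 in Pax8-type cells, against 0.968 in Sertoli cells, 0.775 in Leydig cells, 0.584 in myoid cells, 0.838 in stroma and 0.0912 in germ cells, and none of these intervals includes 1. The Pax8-type gate held 9 cells in the library labelled knockout, 8 of which also met the Sertoli gate, against 29 of 47 in wild type. In cells of a single gate, *Gja1* stood at 4.68 CPM in wild type and 3.38 CPM under the knockout label in germ cells, and at 3.55 and 3.99 CPM in myoid cells, from 1 to 10 UMIs each, and no difference was detectable there at this depth. The difference was not tested.

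*Cdh2* had a ratio of 1.09 in Sertoli cells, against 0.664 in myoid cells and 0.454 in germ cells. The germ value rests on 7 UMIs in 12 cells. The difference was not tested.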

How the results depend on the processing

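No paired analysis was possible because the barcodes carry no sample number and each genotype is 1 library. Of 8 members, 0 were past 1.5-fold between libraries in Sertoli cells; the count was 1 without cells of more than 1 gate (*Cldn11*), without called doublets and with CPM outside mitochondrial and ribosomal protein genes (*Dsp*) and at a minimum of 20 UMIs (*Cdh1*), and 2 at a fold of 5 to 4. Over 6 types 10 pairs of member and type were past 1.5-fold, against 4 without cells of more than 1 gate, 6 at a fold of 2 and 19 at a minimum of 20 UMIs. Members highest in Sertoli cells in both libraries numbered 2 (*Ocln* and *Dsp*), against 1 (*Ocln*) under stricter gates, without cells of more than 1 gate and with the mean CPM of single cells. Without cells of more than 1 gate no Pax8-type cell was left in the library labelled knockout. Members found in over 50% of wild-type Sertoli cells numbered 3, against 6 without thinning and 2 at 3000 UMIs per cell. With cycling cells at 2 or more UMIs, 0 members were past 1.5-fold in both libraries. The *Cdh1* ratio of Sertoli cells to stroma in wild type turned to -0.19 on the log2 scale without cells of more than 1 gate. The count of 6 members at least 2-fold higher in Sertoli cells than in stroma held under each alternative run on it, including stroma without myoid cells, which was chosen after seeing the data. Adding 10 CPM to both levels lowered 15 of 17 ratios of Sertoli cells to stroma beyond their intervals and reversed 0. The single library per genotype, the 12 germ and 9 Pax8-type cells of the library labelled knockout and free RNA limit these values.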
